A study of Homo sapiens with 16 samples.

Results

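The clustered protocadherin genes were taken as the rows of the count table whose symbol joins PCDH to A, B, GA, GB or GC and a number, with AC as the C-type alpha isoforms. The rule found 55 of 25728 symbols, 15 in the alpha cluster, 18 in the beta cluster and 22 in the gamma cluster. All 55 lie on the plus strand of chromosome 5. On GRCh37 the alpha cluster runs from 140165721 to 140391932, the beta cluster from 140430959 to 140628933 and the gamma cluster from 140710081 to 140892544. Of the beta members, PCDHB17 and PCDHB18 are annotated as pseudogenes.

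RNA was sequenced from LAN-1 and Kelly, both established human neuroblastoma cell lines with amplified MYCN. Cells received 2 uM GSK126, which inhibits the histone methyltransferase EZH2, or DMSO, for 2 or 5 days. The 8 groups were therefore LAN-1 with GSK126 at day 2 and day 5, LAN-1 with DMSO at day 2 and day 5, Kelly with GSK126 at day 2 and day 5, and Kelly with DMSO at day 2 and day 5, each with 2 libraries. The labels do not say that the duplicates were separate cultures, so p-values measure only the spread between these samples, which may be technical. With 2 lines, a difference between LAN-1 and Kelly describes those lines.

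Clustered protocadherins are cadherin-like surface proteins that bind identical isoforms on a facing cell and give neurons individual surface identities. In the alpha and gamma clusters each variable first exon has its own promoter and is spliced to constant exons at the end of the cluster, which encode the common cytoplasmic tail. Beta genes are single-exon genes with no common tail. Most promoters carry a conserved sequence element around the letters CGCT, near which CTCF and cohesin bind, and the choice of promoters is stable in a given cell and tied to DNA methylation.

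The promoters of the 8 genes on which the results below turn are shown for the 120 bases before the start, with each CGCT in capitals. They are RefSeq sequences of GRCh38.p14, plus strand, and they stand here because each gene has its own promoter and its own pattern across the lines.
PCDHB2: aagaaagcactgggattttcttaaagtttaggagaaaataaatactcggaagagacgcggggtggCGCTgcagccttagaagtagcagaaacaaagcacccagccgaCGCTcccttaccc
PCDHB5: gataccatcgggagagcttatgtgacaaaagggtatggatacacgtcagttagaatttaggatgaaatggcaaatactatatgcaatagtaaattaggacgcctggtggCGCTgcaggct
PCDHB16: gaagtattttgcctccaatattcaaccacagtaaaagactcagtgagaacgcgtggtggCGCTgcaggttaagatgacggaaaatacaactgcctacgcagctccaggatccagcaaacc
PCDHB3: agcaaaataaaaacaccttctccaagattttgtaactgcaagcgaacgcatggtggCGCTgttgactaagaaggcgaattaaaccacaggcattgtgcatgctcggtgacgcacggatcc
PCDHB4: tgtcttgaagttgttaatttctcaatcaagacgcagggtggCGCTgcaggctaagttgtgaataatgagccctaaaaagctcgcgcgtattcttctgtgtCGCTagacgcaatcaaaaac
PCDHA9: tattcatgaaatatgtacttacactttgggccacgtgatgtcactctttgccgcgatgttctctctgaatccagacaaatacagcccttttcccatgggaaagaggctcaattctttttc
PCDHGB5: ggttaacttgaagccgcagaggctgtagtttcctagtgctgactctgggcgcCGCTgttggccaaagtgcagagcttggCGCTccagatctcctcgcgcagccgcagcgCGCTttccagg
PCDHGC3: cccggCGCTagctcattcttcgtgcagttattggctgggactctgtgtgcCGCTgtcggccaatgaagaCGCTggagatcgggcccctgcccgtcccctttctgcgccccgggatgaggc
PCDHB2, PCDHB5, PCDHB16 and PCDHGB5 were the leading beta and gamma genes of Kelly. In LAN-1 the leading genes were PCDHB3 and PCDHB4 of the beta cluster, PCDHA9 of the alpha cluster and PCDHGC3 of the gamma cluster. The 8 stretches lie at chr5:141094495-141094614 for PCDHB2, chr5:141135086-141135205 for PCDHB5, chr5:141182267-141182386 for PCDHB16, chr5:141100353-141100472 for PCDHB3, chr5:141121698-141121817 for PCDHB4, chr5:140848262-140848381 for PCDHA9, chr5:141397827-141397946 for PCDHGB5 and chr5:141475846-141475965 for PCDHGC3. Of the 55 members, 47 had a promoter in the RefSeq table. CGCT on the sense strand between positions -90 and -30 was present in 42 of these 47, against 19.1% of all 35116 promoters in the table. By cluster it was present in 12 of 13 alpha, 12 of 14 beta and 18 of 20 gamma promoters, and PCDHA9, PCDHB5, PCDHB8, PCDHGA1 and PCDHGB2 had none in this window. On the antisense strand of the same window it was present in 9 of 47 promoters, against 19.4% of all. On either strand anywhere in the 250 bases before and 50 after the start, 46 of 47 had it, against 70.0% of all. The window was chosen after these promoters were seen. A match is a run of letters and not a bound site, and the lack of one says nothing about binding.

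The libraries held 912095 to 1666190 counts each (median 1394475.5). Levels are in CPM, counts per 1e+06 of a library's TMM-scaled total. No pair of duplicates agreed within counting noise: their counts varied 1.11 to 2.04 times as much as counting would give, the most in the GSK126 pair of LAN-1 at day 5. The neuroblastoma identity was checked with 14 adrenergic markers, of which 12 in LAN-1 and 13 in Kelly averaged at least 10 CPM. Those below it in LAN-1 were DBH and TH, with group means of 1.19 to 4.38 CPM and 0.34 to 3.55 CPM. In Kelly these were 332 to 824 CPM and 133 to 276 CPM. Of 14 fibroblast and mesenchymal markers, 8 in LAN-1 and 9 in Kelly also averaged at least 10 CPM. Summed levels of 9 Schwann cell and glial markers were 1.55 to 8.82 CPM in LAN-1 and 4.49 to 18.3 CPM in Kelly, with S100B and CDH19 at 0 in all libraries. Summed levels of 7 haematopoietic markers were 5.76 to 10.8 CPM in LAN-1 and 2.55 to 5.47 CPM in Kelly, with CD3E and HBB at 0 in all libraries.

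Most of the 55 genes were read at low levels in both lines. A mean of at least 10 CPM was reached in LAN-1 by 1 alpha, 3 beta and 1 gamma gene, and in Kelly by 2 alpha, 6 beta and 2 gamma genes. At least 1 CPM was reached by 11 alpha, 8 beta and 8 gamma genes in LAN-1 and by 10 alpha, 16 beta and 16 gamma genes in Kelly. The 55 genes together held 5537 counts, which is 0.0251% of all counts. A filter on low counts kept 19 members for testing, 6 alpha, 10 beta and 3 gamma. The 36 members that were not tested had 0 to 83 counts summed over the 16 libraries, with a median of 29. Among these, PCDHB1 had no read in any library. At this depth 3 counts correspond to 3.31 CPM in the smallest library, to 0.285 CPM over the 8 LAN-1 libraries and to 0.262 CPM over the 8 Kelly libraries, so lower levels could not be told from none. Floors and intervals cover counting error only. In bulk RNA, fewer cells that express a gene and less of its RNA per cell cannot be told apart.

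**Figure D1:**
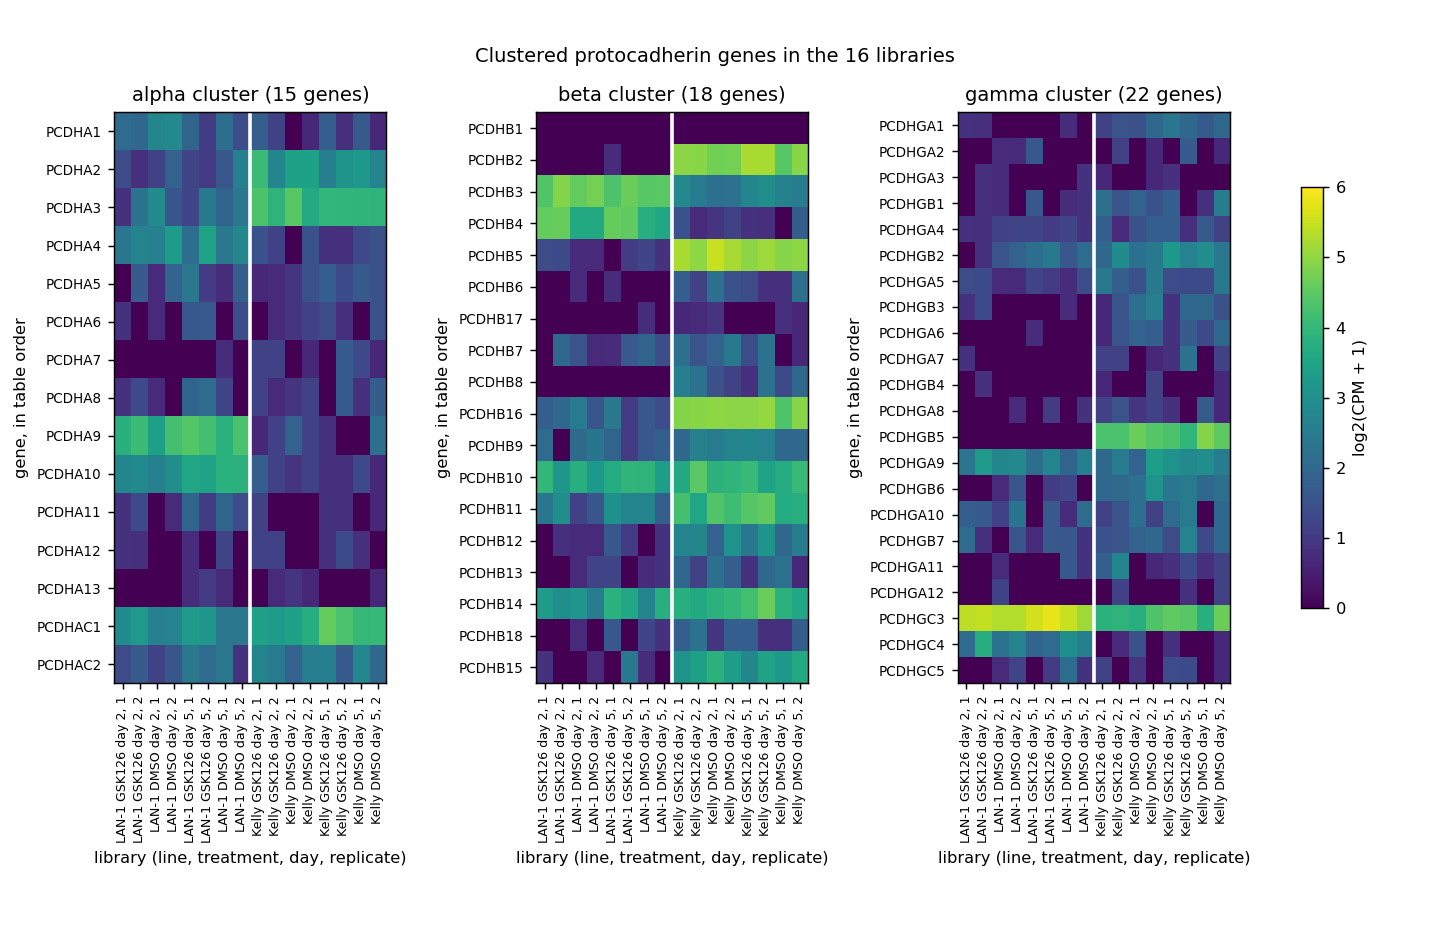
Level of each of the 55 genes (rows, by cluster in order along the chromosome) in each of the 16 libraries (columns, LAN-1 left and Kelly right of the white line, GSK126 left of DMSO within each day), as log2(CPM + 1). In the beta panel PCDHB3 and PCDHB4 are bright in LAN-1 and PCDHB2, PCDHB5 and PCDHB16 in Kelly, whichever treatment was given.

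How reads from common exons were counted bears on the alpha and gamma values. By GENCODE 44 on GRCh37, alpha members share 3 exons of 2866 bases in all and gamma members 3 exons of 2177 bases, while beta members share none. These make up a median of 46.6% of the exon bases of an alpha gene and 43.85% of a gamma gene. PCDHGB5 had no read in any LAN-1 library where PCDHGC3 had 444 counts over the same 8 libraries, so reads of the common gamma exons were not added to every gamma gene. Whether such reads were dropped or given to some members is not given in the sources used here. Sequence shared outside these exons was measured as the share of 50-base words of a gene's own exons that occur in another member. Its median was 6.49% in alpha, 14.1% in beta and 5.085% in gamma genes, with the highest values for PCDHB8 at 45.5% and PCDHA6 at 33.2%. Antisense transcripts are annotated over 19 of the members, among them PCDHB2, PCDHB3, PCDHB5, PCDHB10, PCDHB11, PCDHB16, PCDHA3, PCDHA9 and PCDHA10, and without a stated strand setting their reads cannot be told from those of the genes.

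In the beta cluster, the leading genes differed between LAN-1 and Kelly, while the levels of PCDHB10 and PCDHB14 overlapped. PCDHB3 and PCDHB4 led in LAN-1, and PCDHB5, PCDHB2 and PCDHB16 led in Kelly. These 5 encode adhesion molecules of the same build. PCDHB3 (chr5:140480057-140483411) had 18.9, 21.7 and 28.6 CPM as lowest, median and highest of the 8 LAN-1 libraries, against 3.59, 5.05 and 6.87 CPM in the 8 Kelly libraries. PCDHB4 (chr5:140501400-140505205) had 10.9, 17.3 and 23.2 CPM in LAN-1, against 0.0, 0.859 and 2.43 CPM in Kelly. For both genes every LAN-1 library stood above every Kelly library.

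PCDHB5 (chr5:140514788-140518197) had 0.0, 0.971 and 1.63 CPM in LAN-1, against 29.1, 32.1 and 44 CPM in Kelly. PCDHB16 (chr5:140561962-140565801) had 1.10, 2.27 and 4.48 CPM in LAN-1, against 19.4, 30 and 32.1 CPM in Kelly. PCDHB2 (chr5:140474191-140478287) had 1 read over the 8 LAN-1 libraries, in GSK126 at day 5, against 20.9, 29.6 and 36.9 CPM in Kelly. For all 3 genes every Kelly library stood above every LAN-1 library. PCDHB15 had 0.0, 0.340 and 4.41 CPM in LAN-1 and 5.74, 9.42 and 13.5 CPM in Kelly, again without overlap and at a lower level in Kelly than those 3. PCDHB8, not tested, had 0 reads in LAN-1 and 31 reads in Kelly.

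The lines were tested against each other in the 8 DMSO libraries, in edgeR with Benjamini-Hochberg adjustment over 11863 genes. PCDHB3 averaged 22.5 ± 2.29 CPM in LAN-1 and 4.35 ± 0.821 CPM in Kelly (SD, n = 4 each), a log2 fold change of 2.36 ± 0.28 (SE, adjusted p = 3.86e-13 in edgeR). PCDHB4 averaged 11.6 ± 0.667 CPM in LAN-1 and 1.14 ± 1.01 CPM in Kelly, a log2 fold change of 3.17 ± 0.44 (adjusted p = 2.95e-10 in edgeR). PCDHB5 averaged 0.888 ± 0.347 CPM in LAN-1 and 34.9 ± 6.77 CPM in Kelly, a log2 fold change of -5.16 ± 0.35 (adjusted p = 2.04e-27 in edgeR). By this measure PCDHB5 had the smallest adjusted p of the 19 tested members. PCDHB16 averaged 2.57 ± 1.29 CPM in LAN-1 and 27.5 ± 5.40 CPM in Kelly, a log2 fold change of -3.41 ± 0.30 (adjusted p = 1.34e-19 in edgeR). PCDHB2 had 0 counts in the 4 LAN-1 DMSO libraries and 147 in the 4 Kelly DMSO libraries, which is at least 48.5-fold lower in LAN-1 against a floor of 3 counts over the group (adjusted p = 3.96e-25 in edgeR). PCDHB15 had 2 counts in LAN-1 and 60 in Kelly, a ratio of Kelly to LAN-1 of 29.7 with a 95% counting interval of 7.88 to 251.

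**Figure D2:**
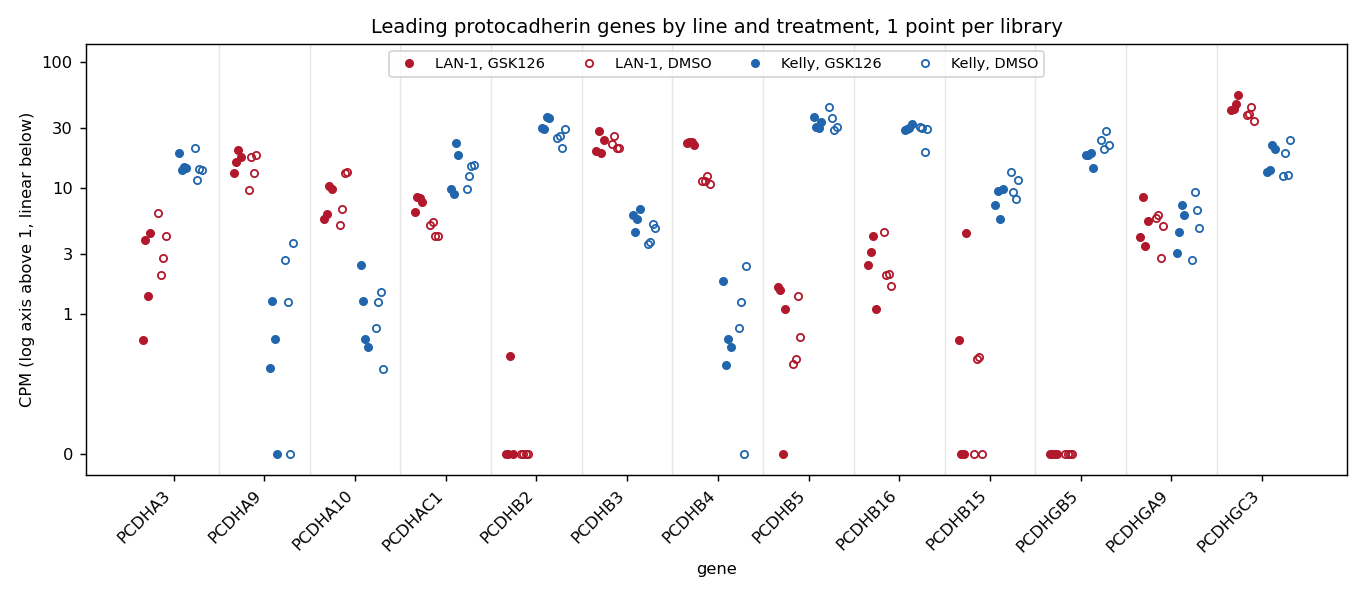
CPM of the 13 members named by rule, 1 point per library, with LAN-1 (red) left of Kelly (blue) and GSK126 (filled) left of DMSO (open); the axis is logarithmic above 1 and linear below. The LAN-1 and Kelly points separate fully for every gene shown but PCDHGA9, and in LAN-1 PCDHB4 has filled points at 22.0 to 23.2 CPM with GSK126 and open points at 10.9 to 12.5 CPM with DMSO.

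In the alpha cluster, PCDHA9 and PCDHA10 had the most counts in LAN-1, and PCDHA3 and PCDHAC1 in Kelly. Per kilobase of own exons PCDHA10, a long gene, had 0.856 CPM in LAN-1, less than PCDHAC1 at 1.51 and PCDHA1 at 1.25. PCDHA9 had 9.60, 16.9 and 20.3 CPM as lowest, median and highest in LAN-1, against 0.0, 1.03 and 3.65 CPM in Kelly. PCDHA10 had 5.12, 8.35 and 13.4 CPM in LAN-1, against 0.608, 1.07 and 2.45 CPM in Kelly. Both were above every Kelly library in every LAN-1 library, and in DMSO their log2 fold changes were 2.86 ± 0.39 for PCDHA9 (adjusted p = 1.93e-10 in edgeR) and 2.98 ± 0.50 for PCDHA10 (adjusted p = 1.16e-07 in edgeR).

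PCDHA3 had 0.816, 3.33 and 6.40 CPM in LAN-1, against 11.7, 14.4 and 20.7 CPM in Kelly, and its log2 fold change in DMSO was -1.92 ± 0.33 (adjusted p = 1.85e-07 in edgeR). PCDHAC1 is a C-type isoform, a class whose promoters are used more uniformly across neurons than those of the other alpha genes. It had 4.18, 5.98 and 8.51 CPM in LAN-1, against 8.93, 13.7 and 23.0 CPM in Kelly, and its log2 fold change in DMSO was -1.46 ± 0.31 (adjusted p = 1.80e-05 in edgeR). For both genes the lines did not overlap.

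In the gamma cluster, PCDHGC3 was the leading gene of LAN-1 and was expressed in both lines, while PCDHGB5 was read in Kelly and had no read in LAN-1. PCDHGC3, a C-type isoform linked in mouse to dendrite branching, had 34.5, 42.1 and 55.1 CPM in LAN-1, against 12.6, 16.6 and 24.3 CPM in Kelly. In DMSO it averaged 38.9 ± 3.86 CPM in LAN-1 and 17.2 ± 5.66 CPM in Kelly (SD, n = 4 each), a log2 fold change of 1.14 ± 0.18 (adjusted p = 1.45e-08 in edgeR). PCDHGB5 had 0.0 CPM in all 8 LAN-1 libraries, against 14.5, 19.6 and 28.4 CPM in Kelly. With 0 counts in LAN-1 DMSO and 134 in Kelly DMSO it was at least 44.3-fold lower in LAN-1 (adjusted p = 2.84e-23 in edgeR). PCDHGA9 had 2.79, 5.28 and 8.51 CPM in LAN-1 and 2.70, 5.49 and 9.27 CPM in Kelly, ranges that overlapped almost completely, and its log2 difference of -0.36 had a 95% interval of -1.14 to 0.43.

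Of the 19 tested members, 17 passed the test between the lines in DMSO, 6 higher and 11 lower in LAN-1, against a background of 67.7% of all genes tested (33.5% higher and 34.2% lower). The higher ones were PCDHA4, PCDHA9, PCDHA10, PCDHB3, PCDHB4 and PCDHGC3. The lower ones were PCDHA2, PCDHA3, PCDHAC1, PCDHB2, PCDHB5, PCDHB11, PCDHB12, PCDHB14, PCDHB15, PCDHB16 and PCDHGB5. PCDHB10 and PCDHGA9 did not pass, and PCDHB10 had a log2 difference of -0.32 with a 95% interval of -0.83 to 0.18. A difference of at least 8-fold was called for 7 of 19 members, against 7.69% of all genes tested. The median size of the log2 difference was 2.46 among the 19 and 0.55 over all genes, also with PCDHB2 and PCDHGB5 set at their bounds. With no filter, 27 of 54 members were called between the lines, against 44.7% of all genes then tested. DESeq2 called 24 of 47 members with an adjusted p, against 47.5% of all such genes. PCDHB14 lost its call without LAN-1 DMSO day 5 replicate 1 (adjusted p = 0.0953 in edgeR) and under DESeq2 (adjusted p = 0.0689). Over all 8 libraries of each line, LAN-1 lay above Kelly without overlap for 6 of the 19 and below it for 9, against 19.8% and 20.4% of all genes tested. The counts over the 19 describe the members that passed the filter: 5 of the 19 reached its count in LAN-1 only and 10 in Kelly only, which favours genes that differ. Of these, PCDHA2 and PCDHGA9 still overlapped between the lines over all 8 libraries of each.

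Within each cluster the counts were concentrated on few genes. PCDHB3 held 30.2% of the beta counts of LAN-1 (95% Wilson interval 27.1 to 33.5%) and PCDHB4 22.5% (19.7 to 25.5%), together 52.7%. In Kelly, PCDHB5 held 19.4% (17.7 to 21.2%), PCDHB2 16.8% (15.2 to 18.5%) and PCDHB16 16.6% (15.0 to 18.3%), also 52.7% in all. The gamma counts of LAN-1 were 64.3% PCDHGC3 (60.6 to 67.7%), a share of 57.3 to 72.0% in single libraries. The gamma counts of Kelly were 26.2% PCDHGB5 (23.4 to 29.1%) and 22.3% PCDHGC3 (19.7 to 25.1%). In the alpha cluster, PCDHA9 held 29.0% in LAN-1 (25.4 to 32.9%) and PCDHA3 28.7% in Kelly (25.2 to 32.4%).

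**Figure D3:**
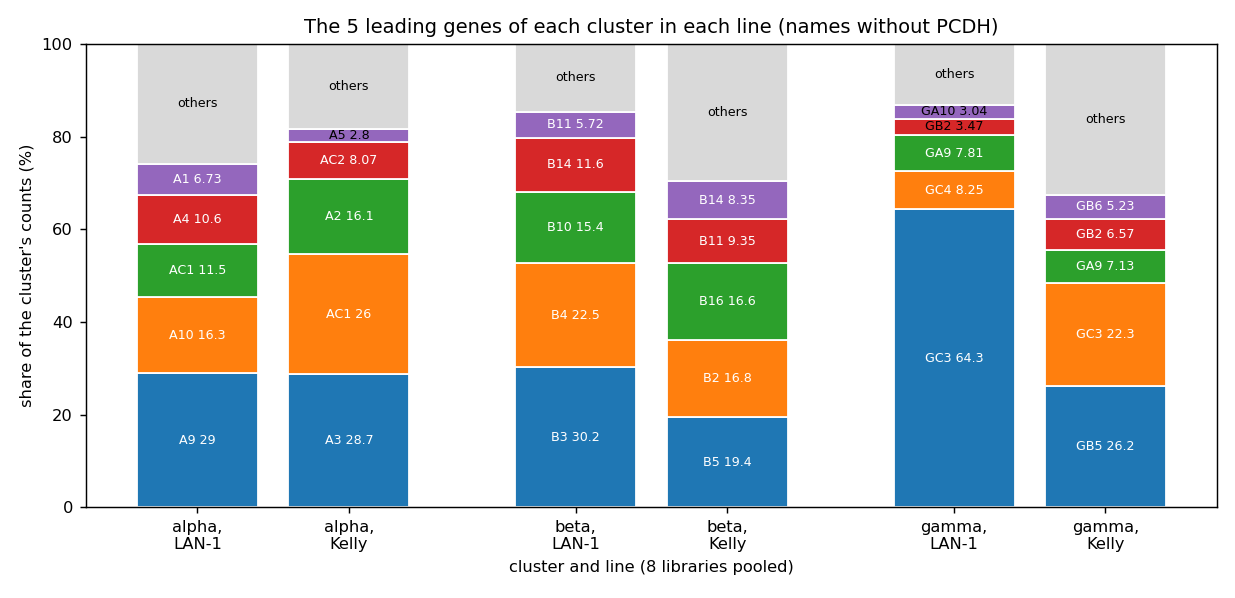
Share of each cluster's counts held by its 5 leading genes, with the rest in grey, over the 8 libraries of LAN-1 and of Kelly; names are given without PCDH. PCDHGC3 fills 64.3% of the gamma bar of LAN-1 and 22.3% of that of Kelly. The beta bar of LAN-1 starts with PCDHB3 and PCDHB4 and that of Kelly with PCDHB5, PCDHB2 and PCDHB16, while PCDHB11 and PCDHB14 appear in both.

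Levels between genes were compared per kilobase of a gene's own exons, as CPM per kb averaged over the 8 libraries of a line. In LAN-1 the order was PCDHGC3 at 13.1, PCDHB3 at 6.76, PCDHB4 at 4.52, PCDHB10 at 3.52 and PCDHA9 at 2.29 CPM per kb. In Kelly the order was PCDHB5 at 9.92, PCDHGB5 at 7.62, PCDHB16 at 7.51, PCDHB2 at 7.14 and PCDHGC3 at 5.34 CPM per kb. In LAN-1 the libraries of PCDHGC3 lay above those of the next gene, while each later gene overlapped its neighbour in the order. In Kelly every gene overlapped its neighbour. The order of neighbours in Kelly, and below PCDHGC3 in LAN-1, therefore does not go beyond the spread of libraries. As a description across the 55 members, Spearman's rho of the mean levels was 0.897 between GSK126 and DMSO in LAN-1 and 0.908 in Kelly. Between LAN-1 and Kelly it was 0.319 with GSK126 and 0.314 with DMSO. All 55 points of each comparison come from the same libraries, and members with few reads add counting noise.

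The summed alpha and gamma levels overlapped between the lines, and the summed beta level did not. The alpha sum was 40.0 to 65.8 CPM in LAN-1 (median 55.0) and 43.4 to 63.1 CPM in Kelly (median 53.0). The beta sum was 62.5 to 88.8 CPM in LAN-1 (median 74.3) and 134 to 200.1 CPM in Kelly (median 178). The gamma sum was 58.3 to 78.2 CPM in LAN-1 (median 65.5) and 64.3 to 90 CPM in Kelly (median 77.6). The lines also differed in mesenchymal markers, whose sum was 1350 to 1811 CPM in LAN-1 and 392 to 1017 CPM in Kelly, and in adrenergic markers, at 4785 to 5352 CPM in LAN-1 and 8038 to 11054 CPM in Kelly. Their part in the protocadherin differences was not tested.

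GSK126 was given to ask what EZH2 inhibition does to gene expression in these lines. EZH2 places H3K27me3, a mark of repressed genes. PCDHGB5, PCDHB2 and PCDHB8, read in Kelly, had at most 1 read in LAN-1 with the inhibitor too. PCDHGB5 had 0 reads in the 4 LAN-1 GSK126 libraries and 0 in the 4 LAN-1 DMSO libraries. PCDHB2 had 1 read in the 4 LAN-1 GSK126 libraries and 0 in the 4 LAN-1 DMSO libraries. PCDHB8 had 0 reads in LAN-1 with either treatment. These counts bound the level but do not show absence.

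In the 4 comparisons of GSK126 with DMSO, 0 of 19 tested members passed edgeR's test. The background was 0.152% of all genes tested in LAN-1 at day 2, 3.66% in LAN-1 at day 5, 0.177% in Kelly at day 2 and 4.9% in Kelly at day 5. At an unadjusted p under 0.05 there were 2 members in LAN-1 at day 2 (PCDHB4 and PCDHB11), 1 in LAN-1 at day 5 (PCDHB4), 0 in Kelly at day 2 and 3 in Kelly at day 5 (PCDHB2, PCDHB11 and PCDHB14). Of all genes tested, 6.23%, 16.7%, 7.48% and 16.5% were at an unadjusted p under 0.05 in the same order. DESeq2 called 0 of 54 members in LAN-1 at day 2 (background 0.0105%), 0 of 54 in Kelly at day 2 (0.0105%) and 0 of the 23 with an adjusted p in Kelly at day 5 (1.21%). No member had an adjusted p from DESeq2 in LAN-1 at day 5, so it offers no check there. With no filter on low counts edgeR called 0 of 54 members in each comparison, against 0.0993% of all genes then tested in LAN-1 at day 2, 1.97% in LAN-1 at day 5, 0.115% in Kelly at day 2 and 2.92% in Kelly at day 5. The median log2 fold change of the members was 0.077 in LAN-1 at day 2, 0.30 in LAN-1 at day 5, -0.065 in Kelly at day 2 and 0.10 in Kelly at day 5, against at most 0.0084 over all genes. A 95% interval within 2-fold in both directions was reached for 4 members in LAN-1 at each day, 10 in Kelly at day 2 and 6 in Kelly at day 5. For the others the interval reached a 2-fold change or no estimate could be given.

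PCDHB4 differed by a similar amount at both days in LAN-1. In LAN-1 at day 2 it had 22.8 and 23.2 CPM with GSK126, against 11.5 and 11.5 CPM with DMSO. In LAN-1 at day 5 it had 23.1 and 22.0 CPM with GSK126, against 12.5 and 10.9 CPM with DMSO. All 4 GSK126 libraries stood above all 4 DMSO libraries. The log2 fold change was 0.99 ± 0.32 at day 2 (95% interval 0.35 to 1.63, adjusted p = 0.384 in edgeR) and 0.94 ± 0.34 at day 5 (0.26 to 1.61, adjusted p = 0.111 in edgeR), so neither day passed the test by itself.

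After these values were seen, the mean of the day 2 and day 5 effects was tested in each line, over all 11863 genes. In LAN-1, 1 of 19 members passed, PCDHB4, against 2.26% of all genes tested, with a log2 fold change of 0.96 ± 0.24 (95% interval 0.50 to 1.43, n = 4 libraries each, adjusted p = 0.00728 in edgeR). Because PCDHB4 prompted this comparison, the p-value is not independent evidence. It stayed under 0.05 when each library was left out in turn, with a highest adjusted p of 0.0457 without LAN-1 DMSO day 5 replicate 2, and DESeq2 gave it no adjusted p and an unadjusted p of 0.011. With no filter PCDHB4 was the 1 member called of 54, against 1.32% of all genes then tested. PCDHB3, the neighbouring gene with the most beta counts in LAN-1, had a log2 fold change of 0.0068 ± 0.20 in the same comparison (95% interval -0.38 to 0.40). In Kelly 0 of 19 passed, against 4.18% of all genes tested, with 2 at an unadjusted p under 0.05 (background 16.6%). DESeq2 called 0 of 38 members there (background 1.11%), and edgeR with no filter 0 of 54 (2.73%). In Kelly PCDHB4 had a log2 fold change of -0.26 ± 0.78 on 13 counts in 8 libraries. The difference of the PCDHB4 effect, LAN-1 minus Kelly, was 1.23 ± 0.86 on the log2 scale (95% interval -0.47 to 2.93, adjusted p = 0.708 in edgeR), so the lines were not shown to differ.

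PCDHAC1 was also without overlap in LAN-1, but did not pass. It had 6.53 and 8.51 CPM with GSK126 at day 2 and 8.39 and 7.71 CPM with GSK126 at day 5. With DMSO it had 5.12 and 5.43 CPM at day 2 and 4.18 and 4.20 CPM at day 5. All 4 GSK126 libraries of LAN-1 stood above all 4 DMSO libraries, and the mean log2 fold change over days was 0.73 ± 0.36 (adjusted p = 0.371 in edgeR). PCDHB11, singled out after its values were seen, had the smallest adjusted p in the mean effect over both lines and days, with a log2 fold change of 0.69 ± 0.25 (95% interval 0.19 to 1.19, adjusted p = 0.0809 in edgeR).

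In Kelly at day 5, PCDHB2 and PCDHGB5 had estimates of opposite sign. PCDHB2 had 36.9 and 35.9 CPM with GSK126 at day 5, against 20.9 and 29.8 CPM with DMSO, a log2 fold change of 0.50 ± 0.24 (adjusted p = 0.27 in edgeR). PCDHGB5 had 18.9 and 14.5 CPM with GSK126 at day 5, against 28.4 and 21.9 CPM with DMSO, a log2 fold change of -0.58 ± 0.29 (adjusted p = 0.305 in edgeR). Neither gene had overlapping groups, and neither passed the test. The interval of PCDHB5 was the narrowest in Kelly, reaching 0.42 (log2) to either side of the estimate at day 2.

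Without overlap, GSK126 lay above DMSO for 5 of 19 members in LAN-1 at day 2, 4 in LAN-1 at day 5, 3 in Kelly at day 2 and 7 in Kelly at day 5, against 18.3%, 22.6%, 19.4% and 24.3% of all genes tested in the same order. It lay below DMSO for 0, 2, 4 and 2 members in that order, against 17.7%, 21.5%, 17.3% and 22.5%. In the mean effect over lines and days, 0 of 19 members passed, against 6.47% of all genes tested, with 1 (PCDHB11) at an unadjusted p under 0.05 (background 18.9%). The GSK126 effect differed between the lines for 0 of 19, against 1.2%, with 1 (PCDHA9) at an unadjusted p under 0.05 (background 9.8%). It differed between the days for 0 of 19, against 0.346%, and day 5 differed from day 2 in DMSO for 0 of 19, against 0.421%, each with 0 at an unadjusted p under 0.05 (background 7.99% and 8.09%). DESeq2 called 0 of the 27 members with an adjusted p in the mean effect (background 2.12%), 0 of 11 in the contrast of lines (0.332%) and 0 of 17 in the DMSO time comparison (0.196%). In the contrast of days it gave an adjusted p to 1 member, too few for a check. With no filter edgeR called 0 of 54 in each, against 3.86% in the mean effect, 0.737% in the contrast of lines, 0.204% in the contrast of days and 0.256% in the DMSO time comparison.

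**Figure D4:**
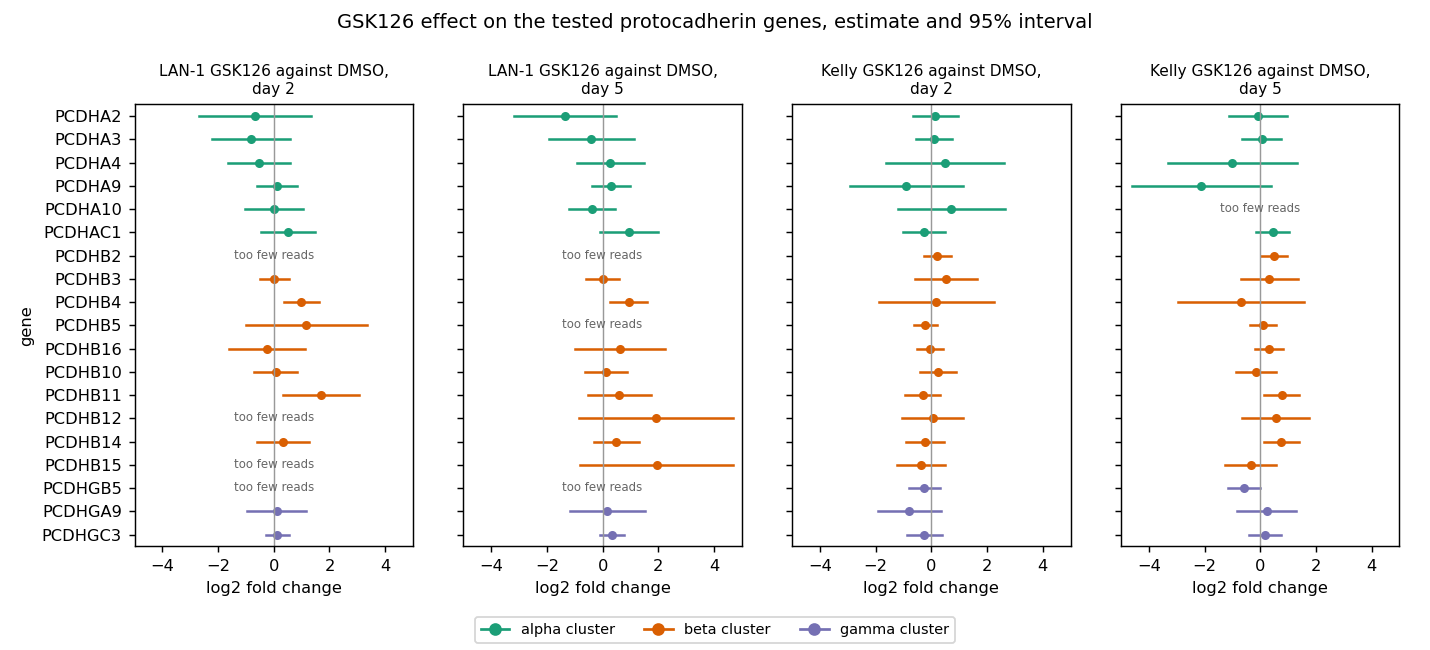
Log2 fold change of GSK126 against DMSO (point) with its 95% interval (line) for the 19 tested members in LAN-1 and Kelly at each day, coloured by cluster; genes with at most 3 counts in both groups, or with no usable standard error, have no estimate. In LAN-1 the interval of PCDHB4 lies above 0 at both days, from 0.35 to 1.63 at day 2 and from 0.26 to 1.61 at day 5, and of the other LAN-1 intervals only that of PCDHB11 at day 2 does not cross 0.

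The summed beta level, which has no test, was 78.3 and 82.0 CPM with GSK126 and 68.5 and 62.5 CPM with DMSO in LAN-1 at day 2. In LAN-1 at day 5 it was 88.8 and 88.2 CPM with GSK126 and 70.3 and 65.5 CPM with DMSO. In Kelly it was 179 and 171 CPM with GSK126 and 185 and 177 CPM with DMSO at day 2, and 180.3 and 200.1 CPM with GSK126 and 134 and 167 CPM with DMSO at day 5. The GSK126 libraries lay above the DMSO libraries in LAN-1 at both days and in Kelly at day 5. PCDHB4 made up 27.1% of the beta counts of LAN-1 with GSK126 and 17.5% with DMSO, and PCDHB3 26.9% with GSK126 and 33.9% with DMSO.

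**Figure D5:**
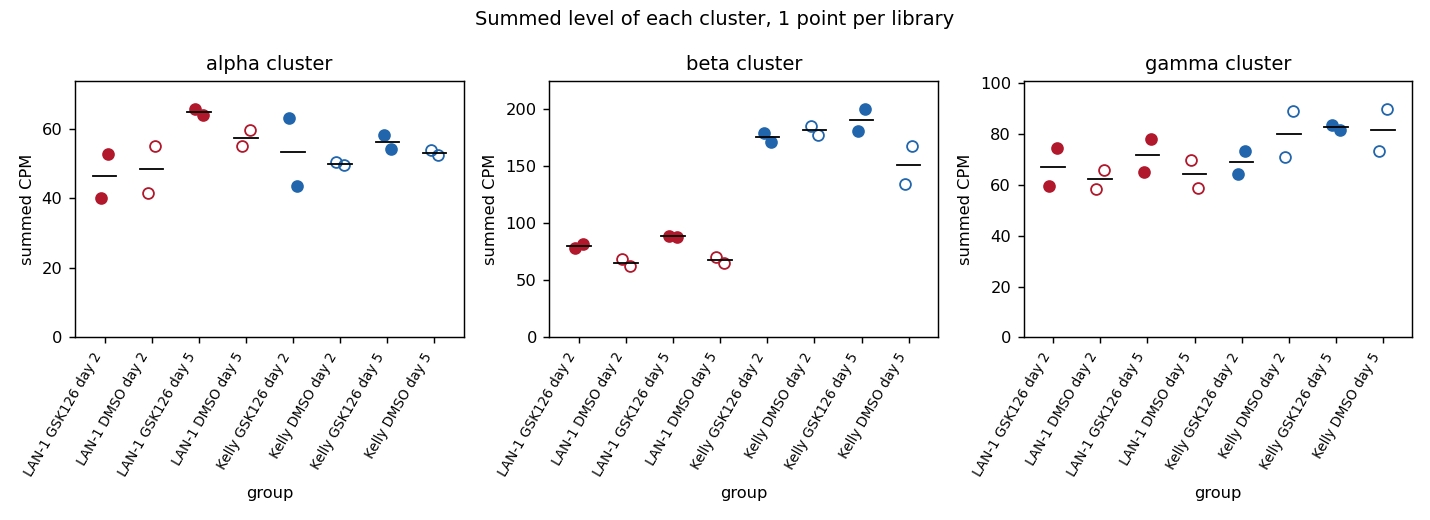
Summed CPM of each cluster in each of the 8 groups, with LAN-1 in red and Kelly in blue, GSK126 filled and DMSO open, 1 point per library and a line at the mean. The beta sums of Kelly, 134 to 200.1 CPM, all lie above those of LAN-1, 62.5 to 88.8 CPM, and the alpha and gamma sums of the lines overlap.

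Relatives, neighbours and partners of the clusters were read from lists chosen with earlier results of these data known. Of 11 nonclustered protocadherins, which lie elsewhere in the genome, 7 were tested. In DMSO, 4 of the 7 were lower and 0 higher in LAN-1 than in Kelly, against 34.2% and 33.5% of all genes tested. In the mean effect over lines and days 1 of the 7 was called, against 6.47%, PCDH10 at 1.1 ± 0.29 (log2, adjusted p = 0.00948 in edgeR). That call did not hold in every fit with 1 library left out. With GSK126, 2 of the 7 rose in Kelly at day 5, against 4.9% of all genes called there, and none in the other 3 comparisons. PCDH17 averaged 82.8 ± 6.93 CPM with GSK126 and 51.2 ± 5.82 CPM with DMSO (SD, n = 2 each), a log2 fold change of 0.68 ± 0.17 (adjusted p = 0.00563 in edgeR, 0.133 without Kelly DMSO day 5 replicate 1). PCDH7 had a log2 fold change of 0.78 ± 0.24 (adjusted p = 0.0404 in edgeR, 0.58 without Kelly GSK126 day 5 replicate 2). Of 8 tested giant cadherins of the FAT, CELSR and DCHS families, FAT4 rose at day 5 in both lines and DCHS1, its binding partner, in LAN-1. At day 5, 3.66% of all genes tested were called in LAN-1 and 4.9% in Kelly. FAT4 averaged 42.7 ± 5.03 CPM with GSK126 and 19.2 ± 3.38 CPM with DMSO in LAN-1, a log2 fold change of 1.11 ± 0.26 (adjusted p = 0.00298 in edgeR, 0.0964 without LAN-1 DMSO day 5 replicate 2). In Kelly FAT4 averaged 72.1 ± 4.72 CPM with GSK126 and 39.8 ± 1.32 CPM with DMSO, a log2 fold change of 0.85 ± 0.19 (adjusted p = 0.00105 in edgeR). In the mean effect over lines and days 2 of the 8 rose, against 6.47% of all genes called. These were FAT4 at 0.64 ± 0.12 (log2, adjusted p = 5.22e-05 in edgeR) and FAT1 at 0.18 ± 0.055 (adjusted p = 0.0264 in edgeR). The FAT1 call was lost in several fits with 1 library left out. DCHS1 had a log2 fold change of 0.38 ± 0.096 in LAN-1 at day 5 (adjusted p = 0.00721 in edgeR, 0.187 without LAN-1 DMSO day 5 replicate 2).

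Of 24 neighbours of the clusters on the same chromosome arm, 19 were tested and 0 passed in the 4 GSK126 comparisons, while 3 were higher and 4 lower in LAN-1 than in Kelly in DMSO, against 33.5% and 34.2% of all genes tested. In the mean over days in Kelly 1 of the 19 was called, against 4.18% of all genes tested, a share too close to tell the neighbours from other genes. It was RNF14, a ubiquitin ligase gene, with a log2 fold change of -0.41 ± 0.13 (adjusted p = 0.039 in edgeR). That call was lost in several fits with 1 library left out. Another 22 tested genes are known for promoter choice or silencing of the clusters, among them CTCF, the cohesin subunits and DNA methyltransferases. Of these, 3 passed in LAN-1 at day 5, against 3.66% of all genes tested, and 0 in the other 3 comparisons. SMCHD1, a chromatin protein that represses clustered protocadherins in mouse, averaged 152 ± 26.4 CPM with GSK126 and 228 ± 10.8 CPM with DMSO, a log2 fold change of -0.56 ± 0.12 (adjusted p = 0.00167 in edgeR, 0.0965 without LAN-1 GSK126 day 5 replicate 2). TET3 and TET1, which oxidise methylated cytosine, had log2 fold changes of 0.43 ± 0.10 (adjusted p = 0.00351 in edgeR, 0.0988 without LAN-1 DMSO day 5 replicate 1) and 0.45 ± 0.13 (adjusted p = 0.0227 in edgeR, 0.477 without LAN-1 DMSO day 5 replicate 2). SMCHD1 also fell in the LAN-1 mean over days, at -0.42 ± 0.084 (log2, adjusted p = 0.000548 in edgeR), a call kept whichever library was left out. It was the 1 called of the 22 there, against 2.26% of all genes, and the 1 called in the contrast of lines, against 1.2%. In the mean effect over lines and days 1 was called, against 6.47%, RAD21 at -0.15 ± 0.044 (adjusted p = 0.0184 in edgeR). That call was lost in some fits with 1 library left out. Between the lines in DMSO, 10 of the 22 were higher and 4 lower in LAN-1, against the same 33.5% and 34.2%. Of 11 PRC2 subunits, EZH2 among them, 0 passed in the 4 GSK126 comparisons by line and day. In DMSO, 2 of the 11 were higher and 5 lower in LAN-1 than in Kelly, against 33.5% and 34.2% of all genes tested. In the mean effect over lines and days 3 of the 11 fell and 0 rose, against 6.47% of all genes called. EZH2 had a log2 fold change of -0.27 ± 0.061 there (adjusted p = 0.00155 in edgeR). RBBP7 had -0.22 ± 0.058 (adjusted p = 0.00853 in edgeR, 0.0512 without LAN-1 GSK126 day 2 replicate 2) and PHF19 -0.32 ± 0.09 (adjusted p = 0.0159 in edgeR, 0.0888 without LAN-1 DMSO day 5 replicate 1). In the mean over days, 1 of the 11 was called in LAN-1 (EZH2), against 2.26% of all genes tested. In Kelly 2 of the 11 were called (PHF19 and RBBP7), against 4.18%. Each of these calls was lost without at least 1 library, those of EZH2 and RBBP7 in several such fits.

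A further list held 25 genes for membrane partners, cleavage enzymes and cytoplasmic effectors of clustered protocadherins. With GSK126, 1 of the 25 was higher than with DMSO of the same day in LAN-1 at day 2 and 2 at day 5. In Kelly 0 were higher at day 2 and 4 at day 5. The shares of all genes called were 0.152%, 3.66%, 0.177% and 4.9% in that order, and 0 of the 25 fell in these comparisons. In the mean effect over lines and days 3 rose and 1 fell, against 6.47% of all genes called. The 1 that fell was RAC1, at -0.16 ± 0.052 (log2, adjusted p = 0.0476 in edgeR), a call lost in some fits with 1 library left out. RET, a receptor tyrosine kinase found in a complex with protocadherins in mouse, averaged 152 ± 2.07 CPM with GSK126 and 84.4 ± 7.67 CPM with DMSO in LAN-1 at day 5, a log2 fold change of 0.85 ± 0.14 (adjusted p = 5.89e-06 in edgeR). In Kelly at day 5 RET averaged 219 ± 20.4 CPM with GSK126 and 91.8 ± 0.867 CPM with DMSO, a log2 fold change of 1.25 ± 0.12 (adjusted p = 1.24e-14 in edgeR). At day 2 RET averaged 134 CPM with GSK126 and 111 CPM with DMSO in LAN-1, and 238 and 194 CPM in Kelly. RET and PIK3R1 were also the 2 of the 25 called between the days in DMSO, both lower at day 5, against 0.421% of all genes tested. Their day 5 differences thus include a fall in DMSO. WASF3, a subunit of the WAVE actin regulatory complex, averaged 40.2 ± 9.27 CPM with GSK126 and 3.55 ± 1.85 CPM with DMSO in Kelly at day 5, a log2 fold change of 3.41 ± 0.36 (adjusted p = 2.88e-13 in edgeR). In LAN-1 at day 2 WASF3 had a log2 fold change of 1.14 ± 0.25 (adjusted p = 0.0132 in edgeR, 0.531 without LAN-1 DMSO day 2 replicate 1). PIK3R1, a regulatory subunit of PI3-kinase, had a log2 fold change of 0.68 ± 0.17 in LAN-1 at day 5 (adjusted p = 0.0103 in edgeR, 0.326 without LAN-1 DMSO day 5 replicate 1) and 0.99 ± 0.14 in Kelly at day 5 (adjusted p = 2.51e-08 in edgeR).

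Markers of cell state moved in the same libraries. In Kelly at day 5, 7 of 12 tested mesenchymal markers rose and 7 of 14 adrenergic markers fell with GSK126, while 1 adrenergic marker rose. The share of all genes called there was 4.9%. The summed mesenchymal level there was 998 and 1017 CPM with GSK126 and 495 and 518 CPM with DMSO. In LAN-1 at day 5, 2 of 12 mesenchymal markers and 3 of 14 adrenergic markers rose, against 3.66% of all genes called. The mesenchymal sums there were 1645 and 1811 CPM with GSK126 and 1350 and 1505 CPM with DMSO. The 9 glial markers, none of which was tested, summed to 17.2 and 18.3 CPM with GSK126 and 7.29 and 8.22 CPM with DMSO in Kelly at day 5. The part of these markers in the values above was not tested.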

How the data were processed

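RNA-seq of 16 libraries in 8 groups of 2 was analysed. The authors deposited 1 table of raw counts per gene symbol. The tools named in the submitters' processing notes are FastQC, TopHat2 and featureCounts, and the build is GRCh37 (hg19). Versions, annotation, strand setting and the handling of reads that match several genes are not given in the sources used here. Counts were tested with edgeR 4.0.16 in R 4.3.3 (limma 3.58.1): filterByExpr at a minimum count of 10 kept 11863 genes, libraries were scaled by TMM (factors 0.9774 to 1.026), and a robust quasi-likelihood fit used 1 mean per group with 8 residual degrees of freedom. Benjamini-Hochberg adjustment covered the 11863 genes, and a call needed an adjusted p under 0.05. The procedure was tested on simulated data. Library totals were 912095 to 1666190 counts, and precision is limited by the few counts per member.

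Values per library are given for members called with GSK126, for the 3 highest members of each cluster and for up to 5 called members in each direction between the lines. PCDHB8 was added for its 0 reads in LAN-1. The members and lists were chosen with earlier results of these data known. Alternatives were RLE size factors, DESeq2 1.42.0, no filter, a replicate block and leaving out each of the 16 libraries. Exon positions came from GENCODE 44 lifted to GRCh37, with 53 symbols matched directly and 2 through a synonym. The labels do not say that replicate numbers pair the samples. Differences between the duplicates correlated across genes at -0.0876 to 0.103 over 28 pairs of groups. That shows no large effect shared by a replicate number, but it cannot exclude pairing.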

Additional observations from a re-analysis of the deposited data

How the results depend on the processing

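Under RLE size factors, no filter on low counts, the replicate block and the removal of each of the 16 libraries, 0 members were called in each of the 4 GSK126 comparisons, their mean, the contrasts between lines and days and the DMSO time comparison. With no filter 54 members were tested. In these comparisons DESeq2 called 0 too where it gave adjusted p-values to at least 10 members, but in LAN-1 at day 5 no member had one, and in the contrast of days and the LAN-1 mean over days 1 member had one, so no count is given there. Between the lines in DMSO, 17 of 19 members were called, against 67.7% of all genes tested. With no filter 27 of 54 were called, against 44.7% of all genes then tested. The filter was applied anew when 1 library was left out, so those fits did not always test the same 19 members. PCDHB14 lost its call without LAN-1 DMSO day 5 replicate 1 and under DESeq2. With the replicate block, although the labels do not say that the numbers pair the samples, 17 were called between the lines and 1 (PCDHB4) in the LAN-1 mean over days. That comparison, chosen after the values were seen, gave 1 member whichever library was left out. Of 2055 values of the 13 named members under alternatives, 2055 kept their side of the threshold, and 78 uncalled estimates changed sign. The 13 were chosen partly for a small adjusted p between the lines, and PCDHB14 is not among them. Their count therefore does not speak for the other tested members. All 60 cluster sums moved by less than the spread between replicates. RLE moved the median of all genes by at most 0.0129 (log2). In the 4 GSK126 comparisons DESeq2 gave 85 member values no adjusted p. Depth limits the rest, since 36 of 55 members did not pass the filter on low counts.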
